A study of Mus musculus with 2 samples.

Results

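Heme synthesis and breakdown were followed through 9 of the 33696 genes counted in mouse liver cells, taken by their gene symbols: Alas1, Alad, Uros, Urod, Cpox, Ppox and Fech of the synthesis pathway and Hmox1 and Blvrb of the breakdown pathway. All 9 were found in both count tables. The genes were chosen by name with measured values of the same data in view, their levels by cell class and their differences between the libraries, so the values below describe them and carry no test. RNA of single liver cells was sequenced after droplet capture in 1 library labelled SLC22A18-/- and 1 library labelled SLC22A18+/+, called the knockout-labelled and the wild-type library here. The labels give no further allele, agent or treatment for either library, and describe each as a single sample of liver tissue. The sources used here name no strain, sex or age, no number of animals and no deleted part of the gene. SLC22A18, an imprinted transporter gene, and fatty liver are subjects that the series title lists. With a single library on each side, a difference between genotypes cannot be told apart from a difference between animals or preparations, and all 95% intervals cover counting error only.

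Heme is an iron-containing ring that serves as the working group of haemoglobin, cytochromes and cytochrome P450 enzymes. In the liver, hepatocytes make large amounts of it for their P450 enzymes, and the mitochondrial enzyme Alas1 (5-aminolevulinate synthase) sets the pace of the pathway and is itself repressed by heme. Kupffer cells, which are liver macrophages, take up worn red cells and open the heme ring with Hmox1 (heme oxygenase 1). This yields biliverdin, iron and carbon monoxide, and the biliverdin is then reduced. Blvra and Blvrb are both named biliverdin reductases, and which of them acts on the product of Hmox1 was not measured here.

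The knockout-labelled library held 103478998 unique molecular identifiers (UMIs, each standing for 1 captured RNA molecule) in 11741 barcodes, and the wild-type library 105556354 in 12796 barcodes, and 38 barcode sequences occurred in both. After filters 11155 and 12029 cells were kept, with medians of 5865 and 5362 UMIs. Clusters were named by marker genes, with none of the heme genes used for clustering, and a class was compared when both libraries held 100 or more of its cells, which left 7: hepatocytes (3205 and 3288 cells in the knockout-labelled and the wild-type library), endothelial cells (2451 and 2626), Kupffer cells (1454 and 1250), T cells (346 and 472), monocytes (174 and 205), B cells (730 and 993) and a stellate-like class (672 and 718). The targeted gene, Slc22a18 (ENSMUSG00000000154, GRCm38 chr7:143473736-143499334, plus strand), was detected in both libraries, with 2067 UMIs against 2386 in the kept cells as a whole and a ratio of 0.869 (0.819 to 0.922). Its ratio was 0.908 (0.844 to 0.977) in hepatocytes and 0.477 (0.356 to 0.635) in Kupffer cells. These counts do not check the label, since 3' tags outside a deleted part could remain.

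Levels are given as CPM, a gene's UMIs per 1000000 UMIs of the class, with exact Poisson intervals, and ratios always as knockout-labelled over wild-type library with exact Clopper-Pearson intervals. By the wider of 2 rules of size, a gene was called higher or lower when its ratio was at most 0.8 or at least the inverse of 0.8. It also had to have 50 or more summed UMIs and an interval that excluded 1, and in the library with the higher level 5% or more of the cells had to hold a UMI. The stricter rule, called the rule of 2, asked for a ratio of at least 2 or at most 0.5.

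Across the 7 classes the synthesis genes were highest in hepatocytes and the breakdown genes in Kupffer cells. This held in both libraries for 7 and 2 genes. Hepatocytes led for Alas1, Alad, Uros, Urod, Cpox, Ppox and Fech, and Kupffer cells led for Hmox1 and Blvrb, as the plot of levels by class shows. Urod stood out least, since its interval in hepatocytes overlapped that of the next class in both libraries. The leads of Alad and Urod came from the smaller of 2 kinds of hepatocyte cluster, described below.

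**Figure D1:**
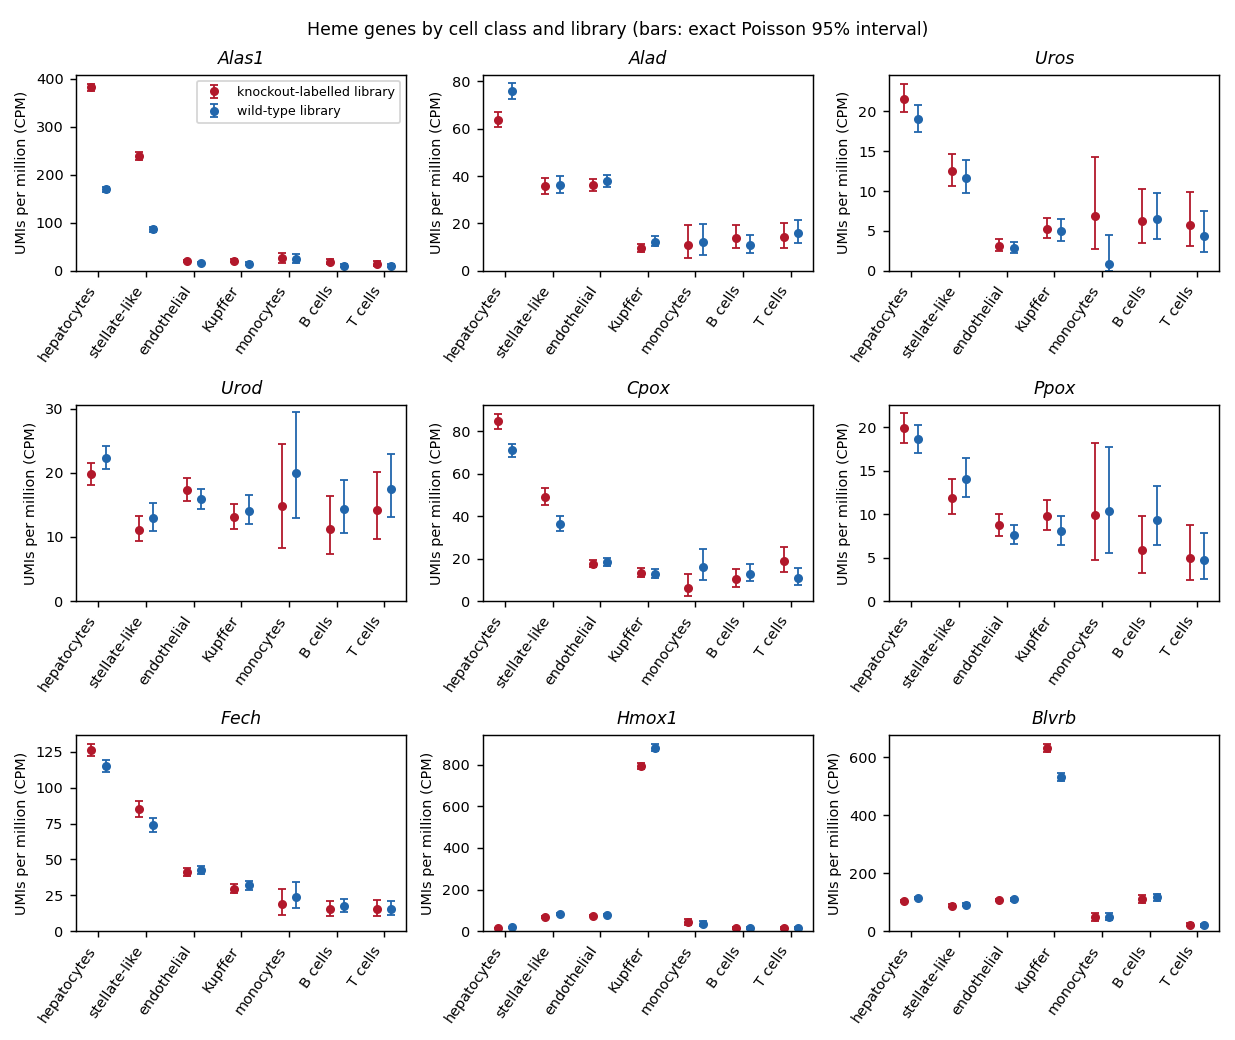
Levels in CPM (linear axis from 0) of each of the 9 genes in 7 cell classes, red for the knockout-labelled and blue for the wild-type library, with exact Poisson 95% intervals. Alas1 stands at 382 and 169.9 CPM in hepatocytes, Hmox1 at 793 and 881 CPM in Kupffer cells, and Urod lies between 11.2 and 22.3 CPM in all classes.

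The pathway opens with Alas1 (ENSMUSG00000032786, GRCm38 chr9:106233455-106248654, minus strand), which joins glycine and succinyl-CoA. In hepatocytes its level was 382 CPM (375 to 390) from 10216 UMIs in the knockout-labelled library and 169.9 CPM (165 to 175) from 4575 UMIs in the wild-type library. Stellate-like cells came next, with 239.6 and 86.3 CPM, and the other 5 classes lay between 10.7 and 25.7 CPM, with intervals that overlapped among neighbours in that order. Most of the stellate-like Alas1 lay in a cluster that held the hepatocyte gene Alb at the level of some hepatocyte clusters, as described below. A UMI of Alas1 was found in 62.5% (60.8 to 64.2, exact binomial) and 46.6% (44.9 to 48.3) of hepatocytes. After thinning each hepatocyte to 2540 UMIs, which left out 545 and 752 shallower cells, the shares were 50.6% and 31.5%. In T cells, where the level was lowest, the unthinned shares were 8.96% and 6.14%. T cells were the deeper class, with medians of 6070 and 5826 UMIs, and hepatocytes had 5303 and 4834.

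RefSeq promoter windows on GRCm38.p6, from 250 bases before to 50 bases after a start site, were searched on both strands for 5 short motifs. Windows were found for 7 of the 9 genes, 11 windows in all. Hmox1 and Fech had no window and were not searched. The motif of nuclear respiratory factor 1, the letters GCGC and TGCGC parted by any 1 base, was present in windows of Alas1 and Uros and in 4.60% of all 32851 windows. It is shown because Alas1 was the synthesis gene that differed most between the libraries while Uros, with the same letters, was not called between the libraries in any class, and capitals mark the motif.

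Alas1, chr9:106247935-106247964, minus strand: gcttcggcgcGCGCGTGCGCgcggcaggcc

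Alas1, chr9:106247906-106247935, minus strand: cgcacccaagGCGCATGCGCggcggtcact

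Uros, chr7:133709323-133709352, minus strand: cggtcacactGCGCCTGCGCgagtcccgcc

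The letters are a description of these windows, and no binding was measured. The E-box CACGTG was present in windows of Alad, Urod and Uros and in 7.15% of all windows, the GATA motif AGATAA in a window of Cpox and in 11.2% of all windows, and the motifs TGAGTCA (AP-1) and TGACGTCA (cyclic AMP response element) in none of the 11 windows, against 5.20% and 1.79% of all windows. The sites of Alad and Urod are shown because both genes had their highest levels in the same hepatocyte clusters, and that of Cpox because it was called higher in stellate-like cells and T cells. Uros, which also had CACGTG, was lower in those hepatocyte clusters than in the others, and Blvrb, without it, was higher there. Alad had another CACGTG site, at chr4:62520151-62520180, and Uros had 1 at chr7:133709516-133709545, both not shown. Capitals mark CACGTG, or for Cpox TTATCT, the reverse strand of AGATAA.

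Alad, chr4:62519920-62519949, minus strand: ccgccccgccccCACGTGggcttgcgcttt

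Urod, chr4:116994445-116994474, minus strand: cactggatcggtCACGTGgttctcaatatg

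Cpox, chr16:58670200-58670229, plus strand: cagggtgcagtcTTATCTgctctttccggg

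The genes of the next synthesis steps were also highest in hepatocytes. Alad (ENSMUSG00000028393, chr4:62509169-62519918, minus strand), which condenses aminolevulinate into porphobilinogen, stood at 63.8 and 75.8 CPM in hepatocytes and at 36.3 and 37.9 CPM in endothelial cells, the next class. Kupffer cells had 9.49 and 12.4 CPM of Alad. Uros (ENSMUSG00000030979, chr7:133686243-133710072, minus strand), the enzyme that closes the ring into uroporphyrinogen, stood at 21.6 and 19.0 CPM in hepatocytes and at 12.5 and 11.7 CPM in stellate-like cells. Urod (ENSMUSG00000028684, chr4:116989965-116994413, minus strand), which trims the side chains of that ring, was nearly level across classes, with 19.8 and 22.3 CPM in hepatocytes, 17.3 and 15.9 CPM in endothelial cells and 11.2 and 12.97 CPM in stellate-like cells, the lowest class. Uros and Blvrb lie on the chromosome of Slc22a18.

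The last steps of synthesis return to the mitochondrion. Cpox (ENSMUSG00000022742, chr16:58670292-58717636, plus strand), the coproporphyrinogen oxidase, stood at 84.7 and 71.0 CPM in hepatocytes, at 49.3 and 36.4 CPM in stellate-like cells and between 5.93 and 18.7 CPM elsewhere. Ppox (ENSMUSG00000062729, chr1:171275990-171281186, minus strand), which oxidises protoporphyrinogen, stood at 19.9 and 18.6 CPM in hepatocytes and at 11.9 and 14.1 CPM in stellate-like cells. Fech (ENSMUSG00000024588, chr18:64452914-64490251, minus strand), the ferrochelatase that puts iron into the ring, stood at 126 and 115 CPM in hepatocytes. It stood at 85.0 and 73.9 CPM in stellate-like cells and at 41.4 and 42.5 CPM in endothelial cells. For Cpox, Ppox and Fech the hepatocyte interval lay above that of the next class in both libraries.

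Breakdown was a Kupffer cell pattern. Hmox1 (ENSMUSG00000005413, chr8:75093621-75100589, plus strand) reached 793 CPM (777 to 808) from 10358 UMIs and 881 CPM (864 to 898) from 10109 UMIs in Kupffer cells. That was 10.6 and 10.8 times the level of the next class, endothelial cells with 75.1 CPM in the knockout-labelled library and stellate-like cells with 81.2 CPM in the wild-type library. Hepatocytes had 14.7 and 18.1 CPM of Hmox1. A UMI was found in 70.4% and 70.6% of Kupffer cells, and in 4.11% and 4.43% of B cells at shallower depth (medians of 8554.5 and 8390 against 3175 and 3356 UMIs). Blvrb (ENSMUSG00000040466, chr7:27447978-27466144, plus strand) stood at 631 and 531 CPM in Kupffer cells, 5.64 and 4.54 times the level in B cells, the next class with 112 and 117 CPM. Endothelial cells (108 and 109.6 CPM) and hepatocytes (104 and 114 CPM) were close to B cells for Blvrb, and T cells were lowest with 22.3 and 19.8 CPM.

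Partner genes outside the 9 had related orders. Alas2, the red-cell form of the opening enzyme, was highest in hepatocytes with 8.46 and 6.91 CPM. Hmox2, the constitutive heme oxygenase, was highest in Kupffer cells with 145.6 and 146 CPM. Blvra, the other biliverdin reductase, was highest there too, with 112 and 100.2 CPM, which was 3.42 and 3.76 times the next class.

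Free RNA from broken hepatocytes can place hepatocyte UMIs in other cells. A reference level was therefore computed for each class, from the median level of 12 secreted hepatocyte genes in the class relative to hepatocyte clusters low in Malat1, a nuclear RNA. Those genes stood at medians of 5.35% and 5.10% of that level in endothelial cells and at 7.59% and 6.52% in Kupffer cells. Hmox1 in Kupffer cells was 591 and 537 times its reference, and Blvrb 28.2 and 29.2 times. Alad in Kupffer cells, with 0.556 and 0.845 times its reference, in B cells (0.554 and 0.458) and in monocytes (0.640 and 0.780) did not exceed it. Alas1 in B cells was 2.87 and 1.06 times its reference and in Kupffer cells 4.60 and 2.42 times. The reference for Alas1 is a low one, because hepatocyte clusters rich in Malat1 held more of this RNA. That for Alad is a high one, because hepatocyte clusters low in Malat1 held more of it. The part of free RNA in the Alad levels was not tested.

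Within hepatocytes, Alas1 was 2.25 times as high in the knockout-labelled library (2.17 to 2.33), and the other 8 genes lay between 0.817 and 1.19. By the rule of 2, 1 of 9 genes was called higher against 0.293% of the 14691 genes tested, and 0 were called lower against 0.129%. By the wider rule, Alas1 was again the 1 gene called higher against 4.84% of all genes, and 0 were called lower against 5.08%. Cpox had a ratio of 1.19 (1.12 to 1.27), Uros 1.14 (1.01 to 1.28), Fech 1.10 (1.05 to 1.15) and Ppox 1.07 (0.944 to 1.21). Alad, at 0.842 (0.789 to 0.898), Hmox1, at 0.817 (0.714 to 0.935), Blvrb, at 0.908 (0.862 to 0.956), and Urod, at 0.889 (0.789 to 1.0004), were on the lower side without passing the rule. The median log2 ratio of the 9 genes was 0.10, beside 0.05 over all genes tested.

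**Figure D2:**
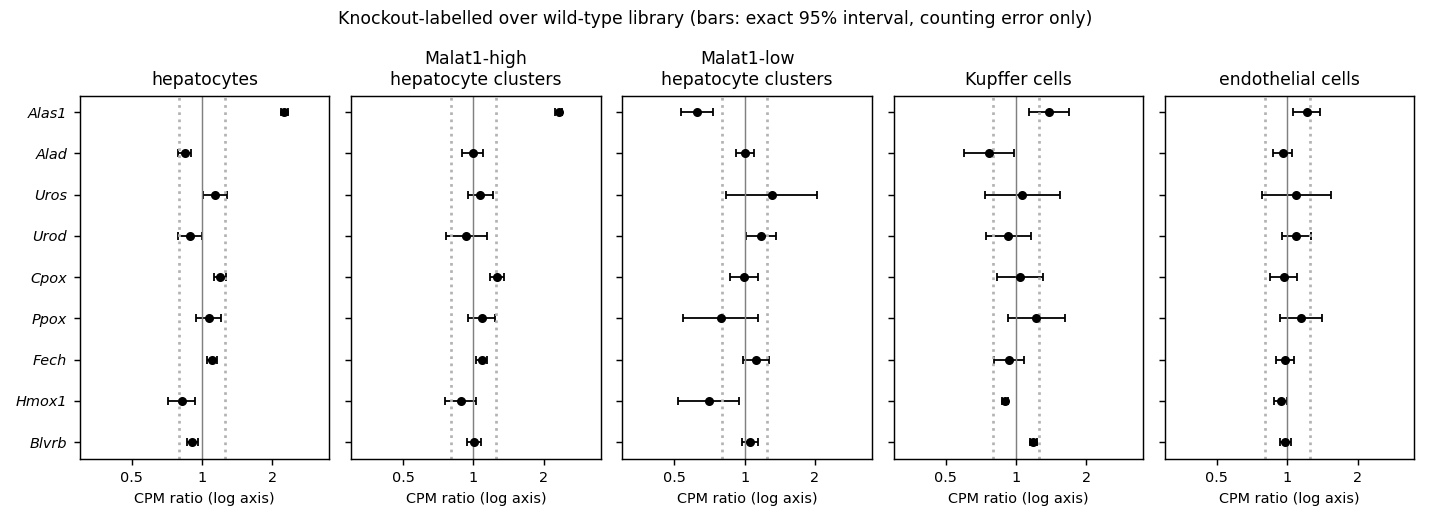
Ratio of the knockout-labelled to the wild-type library (log axis) for the 9 genes in hepatocytes, their Malat1-high and Malat1-low clusters, Kupffer cells and endothelial cells, with exact 95% intervals. The solid line marks 1 and the dotted lines 0.8 and its inverse. Alas1 lies at 2.25 in all hepatocytes, 2.31 in the Malat1-high clusters and 0.626 in the Malat1-low clusters.

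The hepatocytes fell into 6 clusters of 2 kinds, set apart by Malat1, which is a long noncoding RNA of the nucleus. Neat1, another such RNA, stood at 2601 and 2765 CPM in the Malat1-high and at 98.4 and 135.8 CPM in the Malat1-low clusters. Whether the barcodes of either kind held whole cells or nuclei was not tested. Clusters 1, 4, 8 and 14 had 20542 to 48980 CPM of Malat1 and held 80.7% and 74.5% of the hepatocytes. Clusters 6 and 34 had 1310 to 2849 CPM and held 19.3% and 25.5%, and the limit between the kinds, 5000 CPM, was chosen after seeing the data. Median depth was 5729 and 5229 UMIs in the Malat1-high clusters and 2609.5 and 3010.5 UMIs in the Malat1-low clusters. Cluster 34 was small, with 6 and 47 cells, and cell division genes such as Ccna2 and Cdc20 were among its leading genes.

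The direction of Alas1 between the libraries was opposite in the 2 kinds of cluster. In the Malat1-high clusters it stood at 439 CPM from 9976 UMIs against 189.5 CPM from 4025 UMIs, a ratio of 2.31 (2.23 to 2.40). In the Malat1-low clusters it stood at 60.6 CPM from 240 UMIs against 96.7 CPM from 550 UMIs, a ratio of 0.626 (0.536 to 0.730). The Malat1-high clusters held most of the Alas1 UMIs, and the ratio over all hepatocytes lay close to theirs.

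Each cluster gave the direction of its kind. Cluster 8, with the Wnt target Lgr5 among its leading genes, had 558 and 234 CPM, a ratio of 2.38 (2.23 to 2.54). Cluster 14 had 284 and 97.7 CPM, cluster 4 had 414 and 194 CPM, and cluster 1 had 351 and 184 CPM, so all 4 were higher in the knockout-labelled library, with ratios from 1.90 to 2.91. Cluster 6 had 63.7 and 107 CPM, a ratio of 0.595 (0.506 to 0.698), and cluster 34 had 32.5 and 51.8 CPM with an interval that included 1 (0.314 to 1.16). Mitochondrial UMIs took 1.27% and 1.67% in the Malat1-high and 2.04% and 3.23% in the Malat1-low clusters, and the part of Malat1, mitochondrial share and depth in the opposite directions was not tested.

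**Figure D3:**
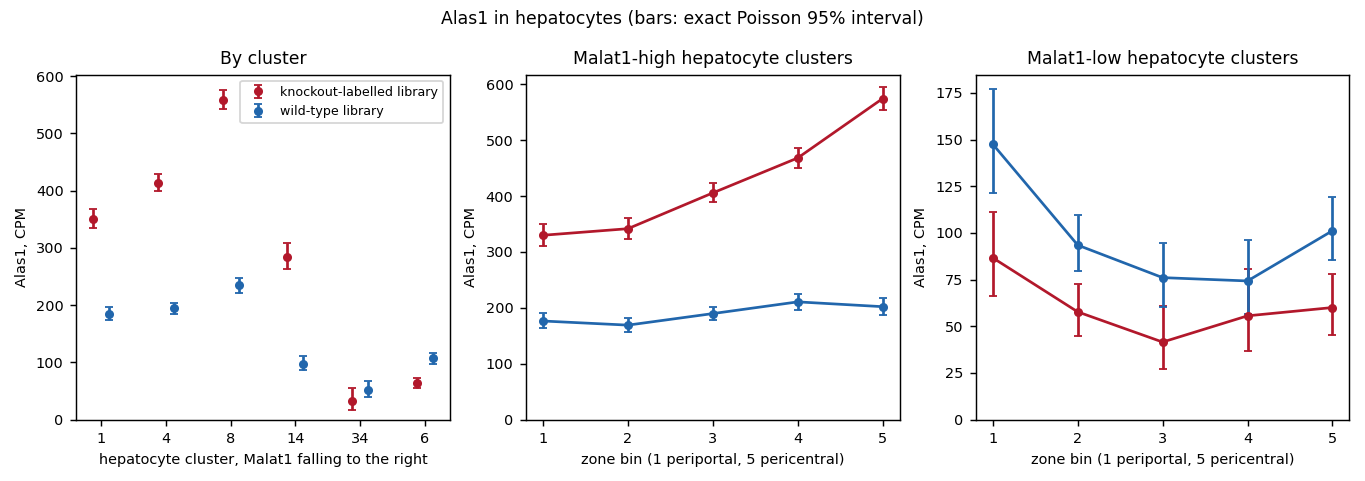
Alas1 in CPM (linear axes from 0) by hepatocyte cluster, ordered by falling Malat1, and by zone bin in the Malat1-high and the Malat1-low clusters, with exact Poisson 95% intervals. The knockout-labelled library (red) lies above the wild-type library (blue) in clusters 1, 4, 8 and 14 and below it in clusters 6 and 34.

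Of the other genes, Cpox was called higher in the Malat1-high clusters, with 84.5 and 66.8 CPM and a ratio of 1.26 (1.18 to 1.36), which made 2 of 9 genes called higher against 3.95% of 14383 genes and 0 lower against 3.53%. In the Malat1-low clusters Cpox stood at 86.0 and 86.7 CPM, a ratio of 0.992 (0.862 to 1.14). There Alas1 and Hmox1 were the 2 of 9 genes called lower against 6.05% of 9118 genes, and 0 were called higher against 3.36%. Hmox1 in these clusters rested on 70 and 143 UMIs, 17.7 and 25.2 CPM, a ratio of 0.702 (0.520 to 0.941). The ratios of Alad (0.992 and 1.003) and Blvrb (1.004 and 1.06) lay nearer 1 in the Malat1-high and the Malat1-low clusters than in all hepatocytes. The part of the differing share of Malat1-low cells in the values over all hepatocytes was not tested.

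The 2 kinds of cluster also differed in the level of several heme genes, in the same way in both libraries. By a rule of at least 2 in both libraries, 3 of 9 genes, Alad, Urod and Blvrb, were higher in the Malat1-low clusters against 15.1% of 12950 genes, and 1, Uros, was lower against 51%. Alad stood at 225 and 224 CPM in the Malat1-low against 35.7 and 36.0 CPM in the Malat1-high clusters, a ratio of 6.31 (5.73 to 6.94) in the knockout-labelled and 6.24 (5.70 to 6.83) in the wild-type library. Urod, at 82.3 and 69.8 against 8.92 and 9.56 CPM, had ratios of 9.22 and 7.31, and Blvrb, at 295 and 279 against 70.5 and 70.2 CPM, had ratios of 4.18 and 3.97. For Alad and Urod the Malat1-low levels also exceeded those of the other 6 classes compared. The Malat1-high levels did not. Alad there lay close to and just below endothelial cells (36.3 and 37.9 CPM). Urod there lay below stellate-like cells (11.2 and 12.97 CPM), the lowest class for this gene. Fech, at 113 and 101 against 129 and 119 CPM, and Cpox, with ratios of 1.02 and 1.30, were nearly equal in both kinds. Alas1 went the other way, 7.24 times as high in the Malat1-high clusters of the knockout-labelled library and 1.96 times in those of the wild-type library. All levels here are shares of the UMIs of the cells compared, and a share can change because other RNAs do.

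Liver lobules are divided into zones between the portal vein and the central vein, and P450 enzymes are concentrated near the central vein. Hepatocytes of both libraries were ranked by 20 pericentral and 20 periportal landmark genes. They were cut into 5 equal bins from 1 (most periportal) to 5 (most pericentral). No landmark was a member or in the heme lists read below, but several were other P450 genes, such as Cyp1a2 and Cyp2f2. Cyp2e1, itself a pericentral landmark used for the ranking, went from 90.9 and 79.1 CPM in bin 1 to 1823 and 1653 CPM in bin 5. Its rise follows from the ranking and is no check of the bins. A gene was called zonal when bin 5 over bin 1 was at least 1.5 or at most 0.67 with an interval excluding 1 in both libraries. Between 185 and 260 of the 6493 hepatocytes lay within 0.05 units of the zone score of any cut between bins.

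Alad, Cpox and Blvrb were called pericentral, 3 of 9 genes against 4.53% of 12910 genes, and 0 were called periportal against 3.63%. Cpox was higher in each bin than in the one before, going from 53.0 through 54.99, 79.6 and 90.2 to 128 CPM in the knockout-labelled library and from 38.6 through 54.9, 69.5 and 84.8 to 107 CPM in the wild-type library. Its ratio of bin 5 to bin 1 was 2.42 (2.07 to 2.83) and 2.77 (2.33 to 3.31). Blvrb stayed at 74.5 to 91.0 CPM in bins 1 to 4 and reached 165 CPM in bin 5 of the knockout-labelled library, and went from 62.7 to 226 CPM in the wild-type library, with ratios of 2.21 (1.94 to 2.53) and 3.61 (3.16 to 4.13). Alad went from 51.9 to 85.3 CPM and from 52.3 to 115 CPM, with ratios of 1.64 (1.39 to 1.94) and 2.20 (1.89 to 2.58), and in both libraries bin 3 lay below bin 2.

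Uros, Urod, Ppox, Fech and Hmox1 had end-bin ratios between 0.806 and 1.37 with intervals that included 1 in both libraries. Fech, the final enzyme, stayed between 108 and 140.3 CPM in all 10 bins of the 2 libraries. Urod peaked in bin 2, at 30.1 and 30.3 CPM, and had its lowest values in bin 4 (12.4 CPM) and bin 3 (15.6 CPM).

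Alas1 passed the size limit for zonation in the knockout-labelled library and not in the wild-type library. Its level in the former went from 285 and 270.2 CPM in bins 1 and 2 through 367 and 435 to 496 CPM in bin 5, a ratio of 1.74 (1.62 to 1.86). In the wild-type library the 5 bins held 171, 147, 172, 189 and 174 CPM, a ratio of 1.01 (0.918 to 1.12), so the gene was not called zonal in both. The ratio between the libraries went from 1.67 (1.52 to 1.83) in bin 1 to 2.85 (2.64 to 3.08) in bin 5, and the groups' intervals did not overlap in any bin. With 1 library on each side the difference between the gradients was not tested.

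**Figure D4:**
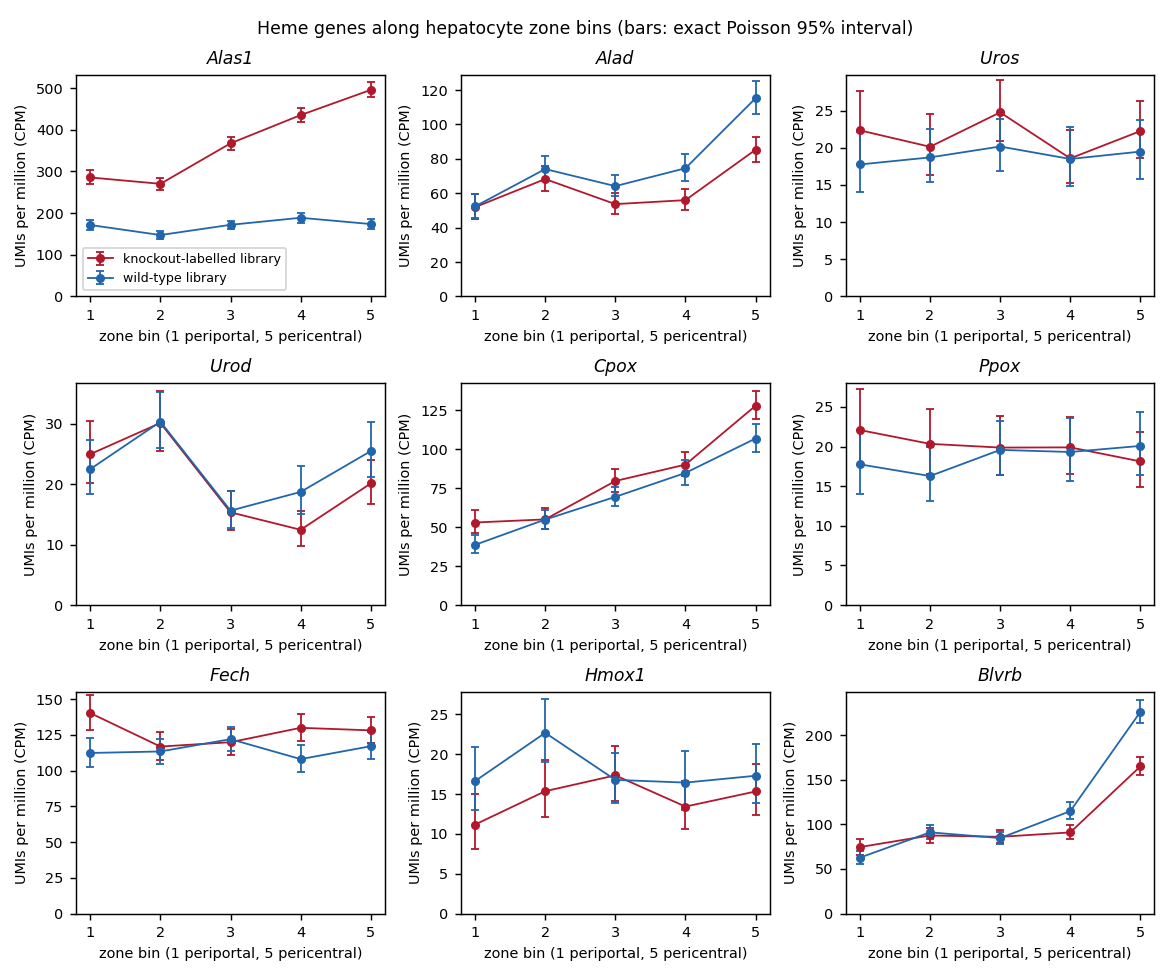
Levels (CPM, linear axes from 0) of the 9 genes in 5 hepatocyte zone bins from 1 (periportal) to 5 (pericentral), red for the knockout-labelled and blue for the wild-type library, with exact Poisson 95% intervals. Cpox and Blvrb are higher in bin 5 than in bin 1 in both libraries, and Alas1 climbs to 496 CPM in the knockout-labelled library while it stays between 147 and 189 CPM in the wild-type library.

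Within the Malat1-high clusters the same 3 genes were called pericentral, against 3.65% of 12548 genes, and 0 periportal against 3.49%. The ratios were 2.08 and 2.62 for Alad, 2.19 and 2.62 for Cpox and 2.30 and 3.47 for Blvrb. Alas1 had 330.0 CPM in bin 1 and 575 CPM in bin 5 of the knockout-labelled library, a ratio of 1.74 (1.62 to 1.87), against 176 and 202 CPM and a ratio of 1.15 (1.03 to 1.28) in the wild-type library. Between the libraries, Alas1 was 1.87 times as high in bin 1 and 2.84 times in bin 5.

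In the Malat1-low clusters Cpox and Blvrb were called pericentral, 2 of the 7 genes with enough UMIs, against 19.4% of 6444 genes, and 0 periportal against 5.99%. Alas1 there was lower in the knockout-labelled library in each of the 5 bins, with ratios from 0.546 to 0.748 and an interval that included 1 in bin 4. Its own gradient was toward the periportal side, 0.693 (0.473 to 1.01) and 0.686 (0.532 to 0.886). The bins of these clusters differed in depth, with medians of 6062 and 8982 UMIs in bin 1 and 1764 and 1972 UMIs in bin 5, and mitochondrial UMIs took 0.524% and 0.517% in bin 1 and 6.26% and 7.59% in bin 5. The part of depth and of mitochondrial RNA in the zonal values of these clusters was not tested.

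In Kupffer cells the ratios of the 2 breakdown genes lay on opposite sides of 1, and neither was far from it. Hmox1 was lower in the knockout-labelled library, 793 against 881 CPM, a ratio of 0.900 (0.875 to 0.925), and Blvrb was higher, 631 against 531 CPM, a ratio of 1.19 (1.15 to 1.23). Neither passed the wider rule. Alas1, at 21.1 and 15.2 CPM and a ratio of 1.39 (1.14 to 1.68), was the 1 of 9 genes called higher against 2.9% of 12337 genes, and Alad, at 9.49 and 12.4 CPM and 0.767 (0.598 to 0.983), the 1 called lower against 3.7%. Both were at low levels, that of Alad under its free RNA reference, and the part of free RNA in these calls was not tested. The call of Alad was lost with a minimum of 1500 UMIs per cell (0.777), with median-of-ratios scaling (0.786) and without cells that held 3 or more erythroid UMIs (0.827). Alas1 was no longer called with each cell weighted equally (1.22).

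The 3 Kupffer cell clusters differed more than the libraries did. Cluster 3, the largest with 885 and 771 cells, had 823 and 912 CPM of Hmox1 and 641 and 536 CPM of Blvrb. Cluster 11, shallow with a median of 907 UMIs, had similar Hmox1 (882 and 886 CPM) and more Blvrb (946 and 751 CPM). Cluster 17, with 230 and 185 cells, had 153 and 130.2 CPM of Hmox1 and 223 and 229 CPM of Blvrb, below the other clusters for both genes in both libraries. Malat1 ran in the reverse of the Blvrb order, at 17423 and 24002 CPM in cluster 17 against 9921 and 11184 in cluster 3 and 2826 and 3432 in cluster 11. The hepatocyte gene Alb stood at 12057 and 12273 CPM in cluster 11, 7101 and 10208 CPM in cluster 17 and 1628 and 1706 CPM in cluster 3. Malat1-low hepatocyte clusters had 12081 and 18401.5 CPM of Alb and 295 and 279 CPM of Blvrb. The parts of Malat1 and of hepatocyte RNA in these values were not tested. The ratio of Blvrb was 1.20 (1.15 to 1.24) in cluster 3, 1.26 (1.08 to 1.47) in cluster 11 and 0.975 (0.751 to 1.27) in cluster 17.

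**Figure D5:**
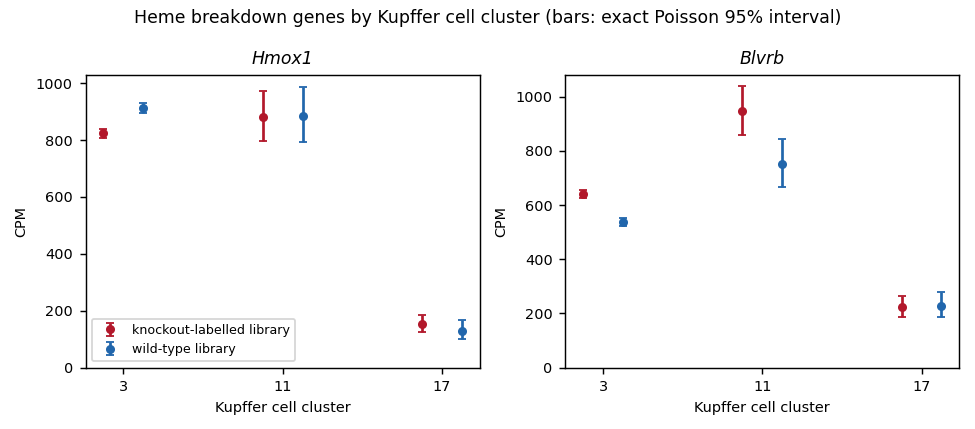
Hmox1 and Blvrb in CPM (linear axes from 0) in the 3 Kupffer cell clusters, red for the knockout-labelled and blue for the wild-type library, with exact Poisson 95% intervals. Cluster 17 lies at 130.2 to 229 CPM for both genes, and clusters 3 and 11 lie at 536 CPM or more.

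Endothelial cells showed little difference between the libraries. None of the 9 genes was called, 0 higher against 1.36% of 13687 genes and 0 lower against 1.21%. The ratios ran from 0.938 (0.878 to 1.001) for Hmox1, at 75.1 and 80.1 CPM, to 1.21 (1.06 to 1.39) for Alas1, at 21.0 and 17.3 CPM. The endothelial clusters differed in Hmox1, with 73.3 and 85.8 CPM in cluster 0, 82.8 and 79.8 CPM in cluster 2 and 26.1 and 20.2 CPM in cluster 12, the last from 17 and 15 UMIs. Alas1 was called higher in cluster 2, with 173 and 159 UMIs and a ratio of 1.33 (1.07 to 1.66).

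In stellate-like cells Alas1 and Cpox were called higher, 2 of 9 genes against 13.7% of 14329 genes, and 0 were called lower against 12.3%. Alas1 had 239.6 and 86.3 CPM, a ratio of 2.78 (2.58 to 2.99), and Cpox 49.3 and 36.4 CPM, a ratio of 1.36 (1.19 to 1.54). Most of the Alas1 lay in cluster 10, with 387 and 169 CPM and a ratio of 2.29 (2.11 to 2.48), where Malat1 stood at 33339 and 37543 CPM and hepatocyte markers scored second to the stellate markers. Alb, the hepatocyte gene for serum albumin, stood there at 6166 and 5836 CPM against 1327 and 1355 CPM in cluster 15. Hepatocyte cluster 4 had 5917 and 5992 CPM of Alb, and hepatocyte cluster 8 had 5035 and 5295 CPM. In cluster 15 Alas1 had 33.6 and 20.6 CPM, a ratio of 1.63 (1.27 to 2.10), and in cluster 28 it had 52.5 and 48.0 CPM, a ratio of 1.09 (0.657 to 1.81). The ratio over the class thus exceeded that of each cluster, and cluster 10 held 383 of 672 cells in the knockout-labelled and 352 of 718 in the wild-type library. Cpox was called in none of the 3 clusters, with ratios of 1.12 (0.972 to 1.30) in cluster 10, 1.17 (0.842 to 1.62) in cluster 15 and 1.16 from 17 and 18 UMIs in cluster 28. Hmox1 had the reverse order, with 15.4 and 18.3 CPM in cluster 10, 146 and 134 CPM in cluster 15 and 70.5 and 88.0 CPM in cluster 28. The part of hepatocyte RNA in the stellate-like values was not tested.

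The remaining classes rested on few UMIs. Of 7 genes tested in B cells, Alas1 was called higher, 46 UMIs against 37, 19.1 and 10.8 CPM, a ratio of 1.77 (1.12 to 2.80), which made 1 against 2.9% of 9226 genes, with 0 lower against 3.53%. Of 7 genes tested in T cells, Cpox was called higher, 42 UMIs against 33, 18.7 and 11.1 CPM, a ratio of 1.69 (1.04 to 2.75), which made 1 against 5.09% of 8431 genes, with 0 lower against 3.64%. In monocytes 3 genes had enough UMIs (Alas1, Hmox1 and Blvrb), with ratios from 0.977 to 1.18, and 0 were called higher against 8.04% of 6291 genes and 0 lower against 6.41%. Classes under 100 cells in a library were not compared. Among them neutrophils had 188 CPM (139.95 to 247) of Hmox1 from 51 UMIs and 89.1 CPM (57.7 to 132) from 25 UMIs, and plasmacytoid dendritic cells had 84.7 CPM (63.8 to 110.3) of Alas1 from 55 UMIs and 18.4 CPM (10.3 to 30.3) from 15 UMIs.

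A wider list of 35 other genes of heme transport, synthesis, regulation and disposal was read in the same way. In hepatocytes all 35 had enough UMIs, and by the wider rule 1 was called higher against 4.84% of all genes and 6 lower against 5.08%, and the median log2 ratio was -0.06, beside 0.05 over all genes tested. Ugt1a1, which conjugates bilirubin, was the gene called higher, with 9.51 and 7.35 CPM, a ratio of 1.29 (1.07 to 1.56). Hpx, the heme-binding plasma protein hemopexin, had 491 and 668 CPM, a ratio of 0.735 (0.719 to 0.752). Ppargc1a, a coactivator known to raise Alas1 in fasting, had 134 and 168 CPM, a ratio of 0.796 (0.762 to 0.832). Slc25a39, a mitochondrial glutathione carrier, had a ratio of 0.762 (0.725 to 0.801) and Tmem14c, which serves porphyrin import into mitochondria, 0.770 (0.722 to 0.820). By kind of cluster, Ugt1a1 was not called in the Malat1-high clusters (1.24), Hpx was called in the Malat1-low (0.687) and not the Malat1-high clusters (0.817), and Ppargc1a (0.739 and 1.05) and Slc25a39 (0.742 and 1.06) were called in the Malat1-high clusters and not in the Malat1-low ones. Tmem14c was called in neither (0.868 and 0.956). Bach1 (1.03, 0.962 to 1.09), the heme-sensing repressor of Hmox1, and Nr1d1 (0.956, 0.895 to 1.02), a clock repressor that binds heme, were not called.

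Partners of the 9 genes were not called in hepatocytes either. Alas2 had a ratio of 1.22 (1.004 to 1.49), Hmox2 0.929 (0.867 to 0.996) and Blvra 0.867 (0.762 to 0.986). In Kupffer cells 32 of the 35 were tested, 0 were called higher against 2.9% and 1 lower against 3.7%. In endothelial cells 33 were tested, 0 were called higher against 1.36% and 2 lower against 1.21%, among them Slc25a38, a mitochondrial glycine carrier of heme synthesis, with 0.747 (0.621 to 0.896). Zones gave 2 pericentral genes, Alas2 and Flvcr2, against 4.53% of all genes, and 2 periportal ones, Hpx and Cox10, against 3.63%, of the 35 in all hepatocytes. Hpx was 1.77 times as high in bin 1 as in bin 5 in each library.

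Enzymes that carry heme were split between the libraries. Of 23 tested in hepatocytes, 4 were called higher against 4.84% of all genes and 4 lower against 5.08%, and the median log2 ratio was -0.10. Among those higher, Cyp7a1, which opens bile acid synthesis, had 258 and 120.4 CPM, a ratio of 2.15 (2.06 to 2.24), Cyp4a14, a fatty acid hydroxylase, 1.78 (1.72 to 1.85), and Cyp3a13 1.26 (1.21 to 1.32). Among those lower, Cycs, cytochrome c, had a ratio of 0.750 (0.718 to 0.784), Cyp39a1 0.779 (0.731 to 0.830) and Cyp2d9 0.638 (0.589 to 0.691). Cycs was called in neither kind of cluster (0.814 in the Malat1-high and 1.04 in the Malat1-low clusters), and nor was Cyp3a13 (1.21 and 0.887). Cyp7a1 (2.05 and 1.19), Cyp4a14 (1.80 and 1.12) and Cyp39a1 (0.736 and 0.757) were called in the Malat1-high clusters and not in the Malat1-low ones, and Cyp2d9 was called lower in both (0.636 and 0.528). In zones 9 of the 23 were called pericentral against 4.53% of all genes and 0 periportal against 3.63%. The bins were themselves ranked in part by other P450 genes.

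Targets of the oxidative stress factor NRF2, which also drives Hmox1, were read as a list of 16. In hepatocytes 15 were tested, 0 were called higher against 4.84% of all genes and 3 lower against 5.08%: Ftl1 (0.719, 0.711 to 0.727) and Fth1 (0.746, 0.736 to 0.756), the ferritin chains that store iron, and Osgin1 (0.719, 0.690 to 0.750). All 3 were lower in the Malat1-high clusters (0.749, 0.708 and 0.658) and not called in the Malat1-low clusters (0.997, 1.06 and 1.10), which held most of the ferritin UMIs. In Kupffer cells 14 were tested and none was called in either direction. Of 8 genes of iron-recycling macrophages, all were tested in Kupffer cells and none was called, with ratios from 0.828 to 1.22.

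Red cells and their precursors make heme and carry its genes, so 15 erythroid genes were counted beside the members. Their summed level was 1717 and 766 CPM in endothelial cells, 136 and 51.3 CPM in Kupffer cells and 125 and 98.9 CPM in hepatocytes, higher in the knockout-labelled library in each. Among those tested, 4 of 5 were called higher in Kupffer cells against 2.9% of all genes, 5 of 7 in endothelial cells against 1.36% and 4 of 8 in hepatocytes against 4.84%, with Hbb-bs, a beta globin, at 61.0 and 22.7 CPM, at 801 and 358 CPM and at 45.6 and 34.1 CPM. Slc4a1, the anion exchanger of the red cell membrane, was near 0, with at most 5 UMIs in any of the 3 classes in either library. In hepatocytes, other genes of the list had more, with 163 and 134 UMIs of Klf1 and 226 and 186 UMIs of Alas2, and neither was called. Hba-a1 and Hba-a2 are near-identical copies whose split is uncertain. The genes called in hepatocytes were the globins Hba-a1, Hba-a2, Hbb-bs and Hbb-bt. All were called higher in the Malat1-high clusters (1.47 to 1.51). None of them was called in the Malat1-low clusters (0.775 to 0.980), where Alas2 was called higher (1.66). Without cells that held 3 or more erythroid UMIs (239 and 157 hepatocytes), Alas1 was still called higher in hepatocytes, with a ratio of 2.27. The secreted hepatocyte genes themselves differed between the libraries, with 1 of 12 higher in hepatocytes against 4.84% of all genes, Fgb (1.55, 1.53 to 1.58), and 4 lower against 5.08%, among them Alb (0.740, 0.736 to 0.744), Trf (0.745, 0.737 to 0.753) and Apoc3 (0.770, 0.760 to 0.780). In the Malat1-high clusters Fgb was higher (1.88) and none of the 12 was called lower, and in the Malat1-low clusters Alb (0.657) and Trf (0.676) were lower while Fgb (0.805) and Apoc3 (0.994) were not called.

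The genes most like each member in their pattern were ranked by Pearson's r of log2(CPM + 1) over 14 values, 7 classes in 2 libraries, among 13828 genes. The classes of a library share its preparation and depth, so r is given as a description. Hmox1 was most like Sdc3 (0.995), Tanc2 (0.986) and Tmem86a (0.982), and Blvrb most like Zdhhc14 (0.9496) and Abca1 (0.945). Alas1 was most like Gm13775 (0.986), Acaa1b (0.982) and Cyp4f17 (0.982). For the later synthesis genes the nearest were Psen2 for Alad (0.980), Gm57352 for Uros (0.975), Gm10658 for Cpox (0.978), Slc66a1 for Ppox (0.9505) and Arhgap5 for Fech (0.991). Urod, level across classes, had the least close neighbours, with Grpel1 at 0.878. No member was among the 3 genes most like another.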

How the data were processed

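Liver cells of 2 mouse libraries were analysed. The labels name droplet chemistry of the 10x Chromium 3' type, version 3. Cell Ranger, STAR and mm10 appear in the submitters' processing notes, and version 8.0.1 of Cell Ranger in the file headers. What the authors deposited are raw UMI counts per gene and barcode, not normalized, with lists of genes and barcodes. No annotation release is named in the sources used here.

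The genes and gene lists were chosen with earlier results of these data known. Cells were kept with at least 500 UMIs, 300 genes and at most 20% mitochondrial UMIs. Scrublet in scanpy 1.11.5 (expected rate 8%, each library's own threshold of 0.315 or 0.291) marked 303 and 402 doublets, which were removed. Both libraries were clustered together without any gene of the heme lists (2000 variable genes, 30 components, 15 neighbours, leidenalg 0.10.2 at resolution 1.0). Clusters stayed unnamed when a rival class scored at least 0.7 of the leading class, a rule changed after seeing the data. They also stayed unnamed with fewer than 3 markers detected or a median doublet score of at least 0.15. Leading genes of another class, or low UMIs without a leading marker, were further reasons. In all, 1755 and 2093 cells were unnamed. Free RNA was not subtracted. UMIs were summed per class and library and scaled to CPM, with exact 95% intervals from scipy 1.17.1. Genes were named by a rule: the 9 members, a few partners, and the members of each list past the wider rule with the most UMIs. Some genes that the rule names are not reported here. Cluster 34, Lgr5, the small classes, Bach1 and Nr1d1 were picked after their values were seen. Locations are from GENCODE vM21 on GRCm38. Scripts were tested on simulated data. Alternatives changed doublets, mitochondrial and depth limits, resolution, cell weighting, scaling, the UMI minimum, erythroid cells, zone bins and landmarks, and the kind of hepatocyte cluster, the last added after seeing the data.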

Additional observations from a re-analysis of the deposited data

Results flagged for a closer look

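Alas1 was called in opposite directions in different sets of cells, and the contrast between these sets was not tested, since each group holds 1 library. Its ratio of the knockout-labelled to the wild-type library was 2.25 in hepatocytes, 2.31 in their Malat1-high clusters, 2.78 in stellate-like cells, 1.77 in B cells and 1.39 in Kupffer cells, all on the higher side, and the Malat1-high clusters lie within the hepatocytes. It was 0.626 in the Malat1-low hepatocyte clusters, on the lower side. No interval of these ratios included 1, which the rule for a call requires. The B cell value rested on 46 and 37 UMIs, and the stellate-like value exceeded that of each of its clusters (1.09 to 2.29). Cluster 10, which held most of the stellate-like Alas1, had Alb near the level of hepatocyte clusters 4 and 8.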

How the results depend on the processing

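No paired analysis was possible because each group holds 1 library. Among values of single genes under the alternatives, 223 were counted as unchanged. Called ones among these kept their direction and call, and uncalled ones stayed within their main counting interval, on either side of 1. Another 11 uncalled ones moved past that interval, and 4 lost and 4 gained a call. Of the called ones, 1 turned: Alas1 in hepatocytes was 0.626 in the Malat1-low clusters only. Of the counts, 104 stayed within 1.5 times and 16 did not. Counts of members called lower in hepatocytes went from 0 to 1 (Hmox1) with doublet calls kept and with median-of-ratios scaling, and in Kupffer cells from 1 to 0 with at least 1500 UMIs, with median-of-ratios scaling and without erythroid-bearing cells. In the Malat1-high clusters only, 2 members were called higher, and in the Malat1-low clusters only 0 were called higher by either rule and 2 lower. Pericentral members went from 3 to 5 with cells weighted equally, adding Urod and Hmox1, and periportal ones from 0 to 1 (Urod) with a part of the landmarks. With cells weighted equally, other heme genes went to 2 higher and 3 lower, NRF2 targets to 1 higher and erythroid genes to 2 higher in hepatocytes, and with median-of-ratios scaling other heme genes went to 0 higher. The causes were not tested. Alas1 in hepatocytes ranged otherwise from 2.08 to 2.31. In B cells, T cells and monocytes 2, 2 and 6 members had too few summed UMIs to be read.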
